A study of Caenorhabditis elegans with 2 samples.

Results

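The X chromosome carried 348 of the 1778 peaks (19.6%) in a list of reproducible binding sites of the transcription factor SKN-1 in Caenorhabditis elegans larvae. They are every line of that list on X in genome build ce11 (WBcel235), chosen by position alone and with no measured value. Chromatin immunoprecipitation with sequencing (ChIP-seq) was done on whole larvae of the third stage, L3, mixed in sex. The strain was OP342, which carries the unc-119(ed3) allele on chromosome III and the integrated transgene wgIs342. The precipitated protein was an eGFP-tagged skn-1 product. All samples form 1 group of 2 biological replicates, so there is no second condition, and the comparisons are between X and the autosomes and among the X peaks. Whole animals were used, so a site bound in a few cells and one bound weakly in many cannot be told apart.

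SKN-1, related to the mammalian Nrf factors, specifies endoderm in the early embryo and later drives detoxification, proteasome and other stress-response genes, largely in the intestine and the ASI neurons. The X chromosome has its own layer of control: in XX animals a dosage compensation complex binds X and lowers its transcription. That complex is recruited at scattered X sites that share a GC-rich motif, in which the letters CGCAGGG are a central part. No map of that complex was analysed here.

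The strongest X peaks stood apart in their sequence. Of the 20 X peaks of highest signal value, 11 (55.0%, Wilson 95% interval 34.2 to 74.2%) held CGCAGGG on one strand or the other with its centre within 50 bp of the summit, the base of highest signal. The signal value is the authors' own score for a peak, used here only to rank and describe peaks. The 9 matches among the strongest 13 X peaks are printed below, since they show how far the likeness runs beyond these 7 letters. Each is read 5′ to 3′ along the strand of the match, from the WBcel235 sequence of RefSeq, with the match in capitals and 10 bases to either side.
Rank 14, chrX:2997113-2997139, minus strand: aaatttatcgCGCAGGGaggaagtagc
Rank 22, chrX:14525890-14525916, minus strand: ttgcctatcgCGCAGGGacagatgtgg
Rank 28, chrX:6296539-6296565, plus strand: ttacatttggCGCAGGGggtcaccata
Rank 28, chrX:6296567-6296593, plus strand: ataggtatcgCGCAGGGaagatttacc
Rank 32, chrX:8036391-8036417, minus strand: ttttttatcgCGCAGGGacgtatgtcg
Rank 43, chrX:11094216-11094242, minus strand: gaaccattcgCGCAGGGacacctcact
Rank 45, chrX:11937532-11937558, plus strand: gaggtacaaaCGCAGGGaagagaatta
Rank 50, chrX:16056523-16056549, minus strand: tcaaatttgcCGCAGGGagttgcacat
Rank 51, chrX:806665-806691, plus strand: gcgattatcgCGCAGGGgtgtttgttg

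Over all 348 X peaks, 21 held CGCAGGG and they held 22 matches. A G stood just before the match in 16 of these 22 (72.7%, 51.8 to 86.8%), against 81 of all 301 matches on X (26.9%). An A stood just after it in 16 of the 22, against 100 of the 301 (33.2%). These neighbouring letters were looked at after the sequences had been read, so they are given with no test. The matches lay a median of 18 bp from the summit, and 14 of 22 lay within 25 bp.

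CGCAGGG was far more frequent at X summits than beside them or at autosomal summits. It was present at 21 of 348 X peaks (6.03%, 3.98 to 9.05%) and in the flanking windows, centred 300 bp to either side, of 1 of them (0.287%). This difference was called (exact McNemar test, two-sided, Benjamini-Hochberg adjusted over 7 motifs, p = 3.84e-05). The 7 motifs were chosen with earlier results of these data known, so calls among them are not independent of these data. On the autosomes 12 of 1430 peaks held it (0.839%, 0.481 to 1.46%). The X share exceeded the autosomal share by 5.20 percentage points (Fisher's exact test, two-sided, adjusted over 7 motifs, p = 1.92e-07), in a comparison added after the values had been seen. Windows of the same 101 bp laid end to end held the letters in 0.169% of cases on X and 0.162% on the autosomes, so the letters themselves are about as common on both.

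Few of the matches in the genome lay at a peak. On X 22 of 301 matches (7.31%, 4.88 to 10.8%) were within 50 bp of a summit of the list, against 12 of 1329 on the autosomes (0.903%, 0.517 to 1.57%). At summits of the whole pooled list, most of whose lines are below the threshold, the gap was smaller, with 34 of 301 matches on X (11.3%) and 75 of 1329 on the autosomes (5.64%). The autosomal peaks with the letters were all in promoters, and 0 of 445 autosomal peaks outside promoters held them. That count allows a share of up to 0.674%, taken for counts of 0 as 3 divided by the number of peaks. On X 15 of 162 peaks outside promoters held them (9.26%), and 6 of 186 promoter peaks (3.23%). With a G in front, as GCGCAGGG, the letters were at 15 X peaks (4.31%, 2.63 to 6.99%), 9 of them among the strongest 20, and at 0 of 1430 autosomal peaks, which allows up to 0.210%. This longer string was chosen after the X sequences had been read, so its counts describe and test nothing. It is in 0.0445% of X windows of 101 bp and 0.0283% of autosomal ones, so it is not equally common on both.

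The frequency followed the strength of the X peaks. CGCAGGG was at 11 of the strongest 20 X peaks, at 5 of the next 80 (6.25%) and at 5 of the remaining 248 (2.02%). The 21 peaks that held it had a median signal value of 97.9, and 36 X peaks with the SKN-1 consensus had a median of 44.05. The 2 groups share 2 peaks. The autosomal share was also higher among strong peaks. In the strongest 889 lines of the list, CGCAGGG was at 9.94% of X peaks and 1.25% of autosomal peaks. In the whole list it was at 6.03% and 0.839%. None of the 20 strongest autosomal peaks outside promoters held it, which follows from the count of 0 above.

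**Figure D1:**
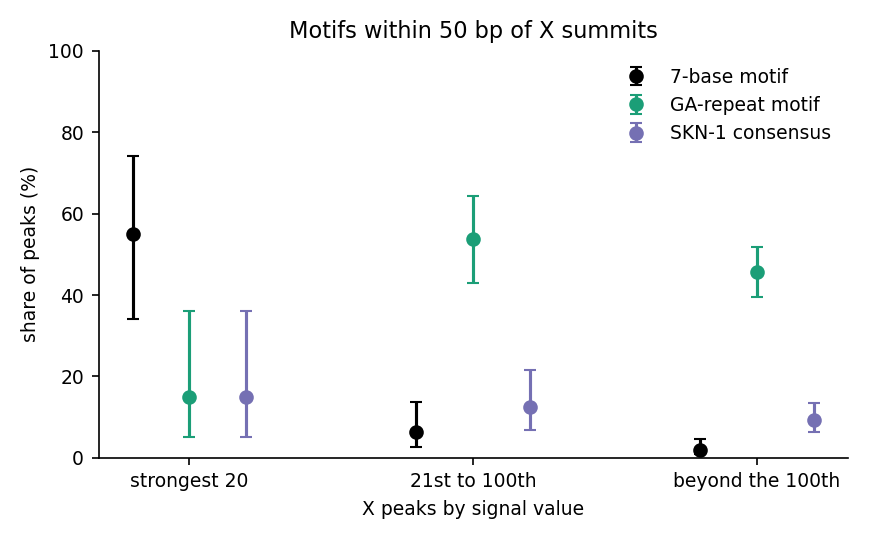
Share of X peaks, in percent, with a motif centred within 50 bp of the summit, for the strongest 20 X peaks, the next 80 and the remaining 248 by signal value; points are shares, bars are Wilson 95% intervals, black is the 7-letter motif named in the text, green the GA-repeat motif and purple the SKN-1 consensus. The 7-letter motif was at 55.0% of the strongest 20, 6.25% of the next 80 and 2.02% of the rest, while the GA-repeat motif was at 15%, 53.8% and 45.6%.

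Not every strong X peak held these letters within 50 bp of the summit. The X peaks of ranks 15, 18, 20 and 23 did not. Farther out but inside the peak, a match was centred 176 bp from the rank 15 summit and 55 bp from that of rank 23. The windows of all these peaks, summit with 50 bases to either side on the plus strand, are printed to show what they share. Capitals mark TTGCCC or its reverse complement GGGCAA and, in the rank 20 window only, also GAGAG or CTCTC.
Rank 15, chrX:12363168-12363268: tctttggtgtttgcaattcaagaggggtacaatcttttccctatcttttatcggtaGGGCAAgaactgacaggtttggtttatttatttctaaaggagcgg
Rank 18, chrX:13700818-13700918: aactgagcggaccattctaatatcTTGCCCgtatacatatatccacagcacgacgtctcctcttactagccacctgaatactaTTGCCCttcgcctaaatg
Rank 20, chrX:9465802-9465902: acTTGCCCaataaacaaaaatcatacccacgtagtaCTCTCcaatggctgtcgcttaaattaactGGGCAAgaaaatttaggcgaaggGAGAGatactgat
Rank 23, chrX:16682070-16682170: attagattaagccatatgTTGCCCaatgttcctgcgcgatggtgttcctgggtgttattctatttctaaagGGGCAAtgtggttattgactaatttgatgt

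TTGCCC was noticed in these windows, so its counts describe and test nothing. It lay in the window of 7 of the strongest 20 X peaks (35.0%, 18.1 to 56.7%), of 4 of the next 80 and of 11 of the remaining 248. Autosomal peaks held it in 37 of 1430 cases (2.59%). It is in 2.56% of X windows of this length and 2.43% of autosomal ones. None of the 20 strongest autosomal peaks held it. Within 50 bp of the summit, 15 of the 20 strongest X peaks held TTGCCC or the 7 letters above or both, and 5 held neither.

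The strongest X peaks were also mostly away from promoters. A promoter here reaches from 1000 bp before to 200 bp after the 5′ end of any annotated protein-coding transcript. Among the strongest 20 X peaks, 4 lay in promoters, 12 in intergenic sequence, 2 in introns and 2 in exons. Of the 50 strongest peaks of the whole list, 12 were on X and 10 of those lay outside promoters, against 9 of the 38 on the autosomes. Over all X peaks, no difference in strength between promoter and other peaks was called: 50% of promoter peaks and 48.15% of other X peaks were in the stronger part of the list (Fisher's exact test, two-sided, adjusted over 4 comparisons, p = 0.75).

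The strongest X peak was in an intron of Y41G9A.17, at rank 14 of the list with a signal value of 207 (chrX:2996939-2997316). Replicate 1 placed this summit at rank 10 and replicate 2 at rank 16. The X peak next in strength, of rank 15 and signal value 203, was intergenic and 1686 bp downstream of the nearest 5′ end, that of F19H6.5 (chrX:12362983-12363371), with ranks 22 and 13 in replicates 1 and 2. Both replicates therefore placed these sites among their strongest lines.

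The peak of rank 18 (signal value 176) lay 6039 bp upstream of K02D3.1, and the peak of rank 20 (169) lay 2507 bp downstream of the 5′ end of ZK899.6. The peak of rank 23 (165) lay 2580 bp downstream of that of F22H10.2. Replicate 1 ranked these summits 16, 21 and 34, and replicate 2 ranked them 21, 17 and 25. None of these genes has a role that is stated here, and a 5′ end at such a distance is a landmark rather than an assigned target.

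An intron of mom-1 held the peak of rank 28, with a signal value of 156. This gene encodes a Porcupine relative needed for Wnt secretion. The peak (chrX:6296448-6296742) ranked 18 and 33 in replicates 1 and 2. It is the peak with a pair of CGCAGGG matches. The peak of rank 32 (signal value 150, chrX:8036273-8036608) lay 4944 bp upstream of xol-1, the switch gene that sets male development and is itself regulated by the number of X chromosomes. Its replicate ranks were 14 and 36, and a second summit of rank 316 (57.0) lay 209 bp away. Neither lay in the xol-1 promoter window.

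The remaining peaks among the 10 strongest outside promoters were of ranks 43, 45 and 50, with signal values of 128, 127 and 121. They lay 3960 bp from the 5′ end of W02H3.3, 1374 bp from that of F55G7.5 and 1003 bp from that of T27A8.7, all downstream of it. All of them held CGCAGGG, as did 9 of the 16 peaks outside promoters among the 20 strongest on X.

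In promoters, the strongest X peak was that of nspc-17, a member of a family of small nematode-specific peptides (chrX:14525763-14526077). It ranked 22 in the list with a signal value of 166, 11 in replicate 1 and 40 in replicate 2. Its window held CGCAGGG 8 bp from the summit. That of puf-9, which encodes an RNA-binding protein of the Pumilio family, followed at rank 49 (signal value 124), with replicate ranks of 64 and 50. These were the only X promoter peaks among the 50 strongest of the list.

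The promoter peak of ins-39, an insulin-like peptide gene, ranked 72 (signal value 101), 46 in replicate 1 and 116 in replicate 2. Its window on the plus strand is shown because it holds the SKN-1 consensus, TTGCCC and CGCAGGG together, in capitals. The window of dpy-22, a Mediator subunit gene, is shown as the next strongest promoter peak with the consensus, in capitals on the minus strand. The dpy-22 peak ranked 83 (signal value 95.9), 249 in replicate 1 and 61 in replicate 2.
ins-39, chrX:1344980-1345080: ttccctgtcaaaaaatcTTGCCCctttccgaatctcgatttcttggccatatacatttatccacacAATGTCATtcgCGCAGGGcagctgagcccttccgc
dpy-22, chrX:9822672-9822772: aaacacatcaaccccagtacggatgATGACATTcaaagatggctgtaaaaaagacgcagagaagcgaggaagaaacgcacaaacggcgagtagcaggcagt

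The peak of hsp-3, which encodes a BiP chaperone of the endoplasmic reticulum, ranked 84 (signal value 95.4), and its summit lay 50 bp upstream of the 5′ end. Replicate 1 ranked it 75 and replicate 2 ranked it 96. A further X promoter peak of high rank, 133 (signal value 79.0), belonged to rpl-11.2, a gene of the large ribosomal subunit, and ranked 128 and 177 in the replicates. The peak of sdc-2, whose product brings the dosage compensation complex to X, ranked 198 (signal value 67.6) and lay 475 bp upstream. It ranked 101 in replicate 1 and 649 in replicate 2.

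The other promoters among the strongest 15 on X were those of ZK1193.2 (signal value 86.8), F19G12.9 (78.8), dpy-23 (77.2), zfp-3 (75.6), T13C5.6 (72.2), C14A11.9 (71.4), serp-1.1 (68.6) and eef-1A.2 (67.7). The gene dpy-23 encodes an adaptor subunit of clathrin-mediated endocytosis, and eef-1A.2 a translation elongation factor. The summit of F19G12.9 ranked 738 in replicate 1 and 94 in replicate 2, and that of T13C5.6 ranked 79 in replicate 1 and 436 in replicate 2, so single replicates differed several-fold in where they placed a site.

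Set against the autosomes, X had fewer of its peaks in promoters and more in intergenic sequence. Promoters held 186 of 348 X summits (53.4%, 48.2 to 58.6%) and 985 of 1430 autosomal summits (68.9%, 66.4 to 71.2%), a difference of -15.4 percentage points (Fisher's exact test, two-sided, adjusted over 8 comparisons, p = 2.75e-07). Intergenic sequence outside promoters held 106 X summits (30.5%, 25.9 to 35.5%), against 18.5% for the autosomes (adjusted p = 4.39e-06, Fisher's exact test). Introns outside promoters held 46 X summits (13.2%), against 11.5% (Fisher's exact test, adjusted p = 0.47), and exons held 10 (2.87%), against 1.12%, with no test. These tests treat peaks as independent, which neighbouring peaks are not.

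**Figure D2:**
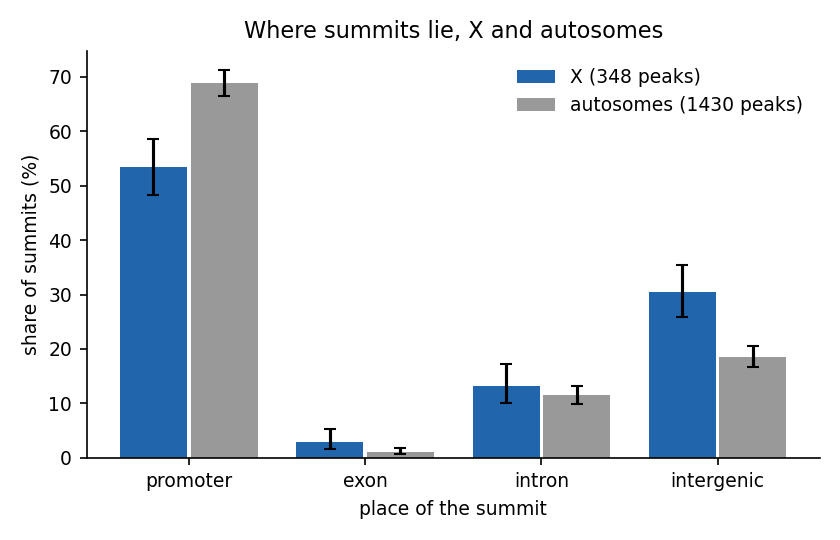
Share of summits, in percent, in promoters and, outside promoters, in exons, introns and intergenic sequence, for X (blue, 348 peaks) and the autosomes (grey, 1430 peaks); bars are shares and error bars are Wilson 95% intervals. Promoters held 53.4% of X summits and 68.9% of autosomal summits, and intergenic sequence held 30.5% and 18.5%.

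The amount of promoter sequence differs as well, and its part in these differences was not tested. Promoter windows covered 21.8% of X and 27.1% of the autosomes. Per base of window, X had 48.099 promoter peaks per Mb of promoter window, against 44.1 on the autosomes together and 27.5 to 62.6 on single autosomes. Outside the windows X had 11.7 peaks per Mb, against 7.39 on the autosomes together and 4.99 to 9.49 on single autosomes, so X had more than any autosome. Of these 162 X peaks, 32 lay within 200 bp of a transfer RNA gene. X holds 276 such genes and single autosomes hold 57 to 78, and the rates without such peaks were not computed. The share of promoter peaks over the share of promoter bases was 2.45 on X and 2.55 on the autosomes.

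X summits lay far from protein-coding 5′ ends more often, some of them inside genes. X is also sparser in protein-coding genes, with 2731 on 17.7 Mb, against 17242 on 82.6 Mb of autosomes. The part of this in the difference was not tested. No protein-coding 5′ end lay within 2000 bp of 95 X summits (27.3%), against 13.9% of autosomal summits (Fisher's exact test, adjusted p = 4.74e-08), and 21 were over 5000 bp away. The farthest, 15194 bp from a 5′ end, was the peak of rank 76 in an exon of pks-1, a polyketide synthase gene. Inside promoters the median position relative to the nearest 5′ end, negative where upstream, was -235.5 bp for X promoter summits and -188 bp for autosomal ones. Of the X promoter summits 154 lay in intergenic sequence and 20 in introns.

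Promoters shared by several genes were much rarer among X peaks. Only 17 X summits (4.89%) fell where promoters of at least 2 genes overlap, against 26.4% of autosomal summits (Fisher's exact test, adjusted p = 2.81e-21). Among promoter peaks alone this was 9.14% on X (5.78 to 14.1%) and 38.4% on the autosomes (35.4 to 41.5%). The genome differs in the same direction: 4.50% of X promoter-window bases belong to several genes, and 11.3% of autosomal ones. The ratio of peak share to base share was 2.03 on X and 3.40 on the autosomes, with no test of this difference. The X peaks in shared promoters include those of asg-2 with glr-6, ucr-2.1 with nmat-1 and gst-42 with D1053.2, and a summit there does not show which gene it serves.

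Genes of transfer RNA (tRNA) were near many of the other X peaks. Within 200 bp of a tRNA gene lay 42 X summits (12.1%, 9.05 to 15.9%), 32 of them outside promoters, against 41 autosomal summits (2.87%, 2.12 to 3.87%). X also holds many of these genes, 276 against 336 on all autosomes. Counted by gene, 48 of the X tRNA genes (17.4%) and 45 of the autosomal ones (13.4%) had a summit near. The strongest of these X peaks, at a signal value of 88.2, was in an intron of sulp-3, and none was among the 20 strongest on X. With all peaks near tRNA genes left out, an alternative chosen after seeing the data, promoters held 57.5% of X summits and 69.6% of autosomal summits (Fisher's exact test, adjusted p = 0.000177).

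Along the chromosome the number of peaks was fairly even. In 5 stretches of equal length, from the left end to the right end, X held 65, 63, 69, 71 and 80 summits. Their makeup shifted: promoters held 60%, 58.7% and 62.3% of the summits in the leftmost stretches, 39.4% (28.9 to 51.1%) in the next and 48.8% (38.1 to 59.5%) in the rightmost. Promoter windows covered 19.4% to 23.9% of the bases in each stretch. Outside the windows there were 9.10, 9.64, 9.54, 15.8 and 14.3 peaks per Mb, in the same order, a description with no test.

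**Figure D3:**
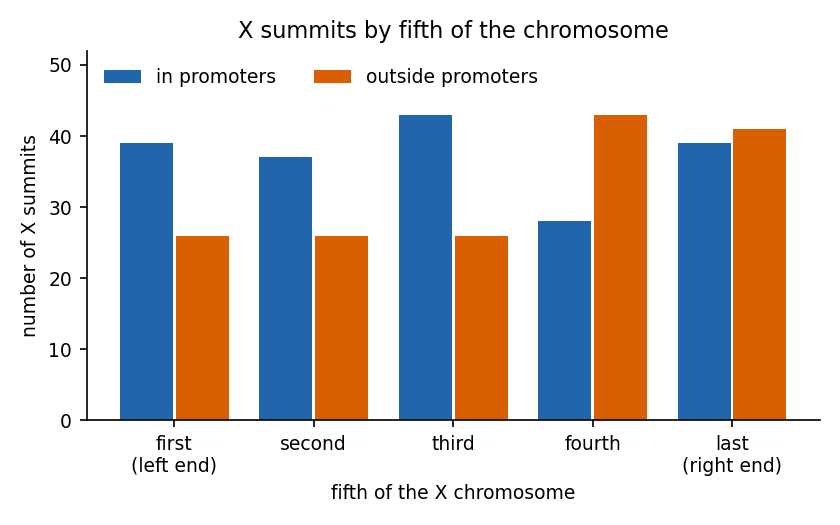
Number of X summits in 5 stretches of equal length from the left end of the chromosome to the right end, with promoter summits in blue and summits outside promoters in orange. The leftmost 3 stretches hold 26 summits outside promoters each, and the last 2 hold 43 and 41.

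The 17 whole 1-Mb bins held 11 to 27 summits, with a median of 20. The bin from 13 to 14 Mb had 4 promoter and 17 other summits, and the bin from 16 to 17 Mb had 4 and 20, whereas the first had 15 and 3. Neighbouring summits were a median of 30023 bp apart. The longest stretch with no summit ran 378807 bp, from 3127853 to 3506660, and ended at the weak promoter peak of sox-4.

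Most X summits stood alone. With summits at most 2000 bp apart joined, 305 were single and 43 formed 20 clusters. The largest held 4 intergenic summits over 3247 bp near C30E1.4, the strongest of them of rank 553 (signal value 46.3). The next held 3 exonic summits, all in meg-1, a gene of embryonic germ granules, and reached rank 55 (signal value 117). That summit ranked 28 in replicate 2 and had no replicate 1 summit within 100 bp, and it was the only one of the 20 strongest X peaks without a match in both replicates. Its peak was 1018 bp wide, where the usual width was 330 bp.

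By the same distance of 2000 bp, 3 genes had 3 summits around their 5′ ends, meg-1, hsp-3 and hrg-1. The gene hrg-1 encodes a haem transporter, and its strongest promoter peak ranked 518 (signal value 47.4), with replicate ranks of 2270 and 291. Only 3 X-linked genes had more than 1 promoter summit.

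Nearly all X peaks had a replicate 2 summit nearby and most a replicate 1 summit, at shares for which no difference from the autosomes was called. The replicate lists are long, with 22350 lines in replicate 1 and 30000 in replicate 2, so a match can be a weak line. Among the strongest 1778 lines, replicate 1 matched 204 X peaks (58.6%, against 59.2% of all peaks). Replicate 2 matched 287 there (82.5%, against 81.7%). A replicate 1 summit lay within 100 bp of 298 X summits (85.6%, 81.6 to 88.9%), against 86.5% for the autosomes (adjusted p = 0.66, Fisher's exact test). Replicate 2 matched 344 (98.9%, 97.1 to 99.6%), against 98.3% (Fisher's exact test, adjusted p = 0.66). The list was made from these replicates, which builds in part of each match, and the replicate 2 shares leave little room to differ. Among the strongest lines of replicate 1 alone, as many as the list holds, 68.7% of X summits and 75.1% of autosomal summits had a replicate 2 match, a called difference of -6.42 percentage points (adjusted p = 0.022, Fisher's exact test). Of the pooled list, 348 of 6131 X lines (5.68%, 5.12 to 6.28%) and 5.99% of autosomal lines were kept, where 5.93% of all lines were. Since membership of the list was the rule that chose the peaks, nothing is read from this beyond the shares.

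The ranks themselves repeated only in part. Among the 294 X peaks matched in both replicates, Spearman's correlation of signal value across peaks was 0.43, with 0.29 for promoter peaks and 0.59 for other X peaks. For autosomal peaks matched in both it was 0.34, with the reverse order, 0.40 for promoter peaks and 0.21 for other peaks. These points are sites of the same 2 libraries, so the correlations are descriptions. Among the strongest 1778 lines of each replicate, 169 X peaks were found in both, 118 in replicate 2 alone, 35 in replicate 1 alone and 26 in neither. The worst rank of a matched X peak was 20807 in replicate 1 and 8717 in replicate 2. Promoter peaks were matched in replicate 1 in 87.1% of cases and other X peaks in 84.0% (Fisher's exact test, adjusted over 4 comparisons, p = 0.75), and in replicate 2 in 100% and 97.5% of cases (Fisher's exact test, adjusted p = 0.18).

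**Figure D4:**
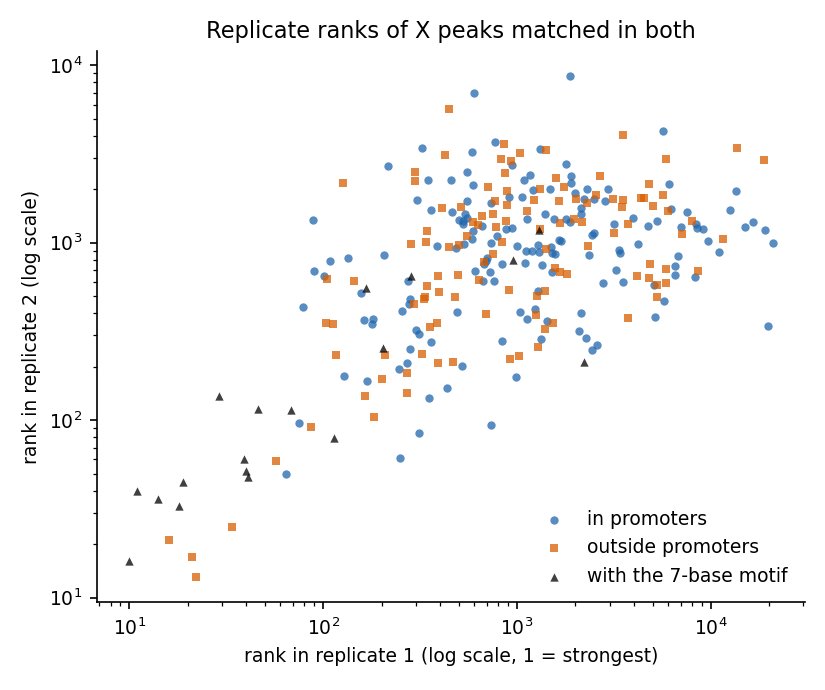
Rank in replicate 1 against rank in replicate 2, both on log scales with 1 the strongest, for the 294 X peaks matched in both; blue circles are promoter peaks, orange squares other X peaks, and black triangles the 18 matched peaks with the 7-letter motif, wherever they lie. The points spread widely beyond rank 100 in either replicate, and the lower left corner, strong in both, holds mostly triangles and squares.

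The strongest lines of each replicate alone also included X sites outside promoters. The list was made from these replicates, which builds in part of this. X held 19.9% of all replicate 1 lines and 20.3% of all replicate 2 lines. Of the 50 strongest lines, X held 14 in replicate 1, 12 of them outside promoters, and 12 in replicate 2, 10 of them outside promoters. The 18 peaks with CGCAGGG that replicate 1 matched had a median rank of 43.5 there, and the 21 that replicate 2 matched a median rank of 116.

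Near the threshold of the list, neighbouring X peaks differed little in signal value. The last X peaks inside were those near sox-4, dve-1 and D2021.4, with signal values of 26.98, 26.97 and 26.96. The first X lines outside lay near F13C5.2, K07E3.4 and F54B11.5, with 26.95, 26.93 and 26.86. The sox-4 summit had ranks of 1872 and 8717 in replicates 1 and 2, and the F13C5.2 summit 495 and 8584. Of the 5783 pooled X lines below the threshold, 28.7% lay in promoters, against 53.4% of those within it.

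Of the 7 motifs, chosen with earlier results of these data known, the GA-repeat motif GAGAG was the most frequent at X summits. It was at 159 X summits (45.7%, 40.5 to 50.9%), against 14.7% in their flanks (exact McNemar test, adjusted p = 3.78e-18). On the autosomes it was at 42.3% of summits (Fisher's exact test, adjusted over 7 motifs, p = 0.48). It occurs in 13.01% of X windows of 101 bp. X promoter peaks held it in 56.5% of cases and other X peaks in 33.3%, with no test. Unlike CGCAGGG, it was at only 3 of the strongest 20 X peaks.

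The SKN-1 consensus is TATCAT or TGTCAT after 2 bases that are each A or T, on either strand. It was at 36 X summits (10.3%, 7.57 to 13.99%) and in the flanks of 34 (9.77%), a difference that was not called (exact McNemar test, adjusted p = 1). On the autosomes it was at 12.9% of summits (Fisher's exact test, adjusted over 8 comparisons, p = 0.33) and at 6.43% of flanks. X windows hold it in 6.18% of cases. Its core, GTCAT or ATCAT, which also counts inside the consensus, was at 41.4% of X summits and 36.8% of flanks (exact McNemar test, adjusted p = 0.34).

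Of the other motifs searched, TGATAA, the letters bound by GATA factors, was at 12.9% of X summits and 8.62% of flanks. GGGCGG was at 3.16% and 1.15%, and CAGCTG at 2.59% and 2.30% (exact McNemar tests, adjusted p = 0.21, 0.21 and 1). None was called. Against the autosomes, CGCAGGG was the only one of the 7 that was called.

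Promoter peaks marked 201 of 2731 X-linked protein-coding genes (7.36%, 6.44 to 8.40%), where 7.75% of all protein-coding genes and 7.81% of autosomal ones were marked. A share near the background is not a result about X. The lists below are therefore given as counts, beside that background. Where each summit is instead given to its nearest 5′ end at any distance, the background is 308 of the 2731 X-linked genes.

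Among the X-linked members of the lists, those of mitochondrial energy production had the highest share marked, though it rests on 6 genes and has no test. Of 6 X-linked genes of oxidative phosphorylation, 5 had a promoter peak, and on the autosomes 12 of 39. When each summit was given to its nearest 5′ end at any distance, 4 on X were marked. The promoter peaks were of middling strength. That of asg-2, an ATP synthase subunit, ranked 734 (signal value 41.4), 542 in replicate 1 and 1445 in replicate 2. That of sdha-1, the flavoprotein of succinate dehydrogenase, ranked 922 (37.1), and that of ucr-2.1, a core subunit of complex III, ranked 1011 (35.5). Those of asb-2 and ucr-2.2 ranked 1208 (32.7) and 1301 (31.4), and gas-1, of complex I, had none.

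Of 3 vacuolar ATPase genes, which acidify organelles, vha-12 (rank 574, signal value 45.7) and vha-15 (rank 1124, 33.9) had promoter peaks and vha-20 did not. On the autosomes 5 of 18 did. Among 3 X-linked bZIP and stress factors, cebp-1, a C/EBP relative, ranked 304 (57.5), and atf-6, a sensor of stress in the endoplasmic reticulum, ranked 838 (38.6), while atf-4 had no promoter peak. Ribosomal protein genes are nearly all autosomal, with 58 of 79 marked there. None of the 33 proteasome genes lies on X, and 30 of them were marked. Of the 2 ribosomal protein genes on X, rpl-11.2 was marked and rpl-25.1 was not.

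Genes of sex determination and dosage compensation were marked at 3 of 6 on X and at 1 of 14 on the autosomes. Besides sdc-2, these were ceh-39, a homeobox gene that signals X number (rank 898, signal value 37.5), and sdc-1, a zinc finger partner of sdc-2 (rank 1380, 30.6). The sdc-1 summit had ranks of 4763 and 1240 in replicates 1 and 2. The other X signal elements, sex-1 and fox-1, and their target xol-1 had no promoter peak, and the summit nearest to sex-1 was 7944 bp from its 5′ end.

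Of 23 X-linked nuclear hormone receptor genes 5 were marked, against 18 of 246 on the autosomes. When each summit was given to its nearest 5′ end at any distance, 10 on X were marked. The strongest were nhr-1 (rank 441, signal value 50.9), nhr-48 (rank 753, 40.9) and nhr-35 (rank 859, 38.2), and nhr-35 had no replicate 1 match. Among 3 heterochronic genes, which time larval development, lin-14 had a promoter peak (rank 1055, signal value 34.9) and 3 summits within the gene. The promoters of hbl-1 and of daf-12, a steroid receptor gene, had none, although a summit of rank 398 (53.1) lay 1800 bp downstream of the daf-12 5′ end.

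Single members were marked in several further lists. These were gst-42, of 3 glutathione S-transferase genes (rank 1277, signal value 31.6), and akt-2, an insulin-pathway kinase, of 6 insulin and p38 genes (rank 336, 55.8). By the nearest 5′ end, 3 insulin and p38 genes, 2 neuropeptide genes and 2 heterochronic genes were marked, where 308 of 2731 X-linked genes were. Among 34 neuropeptide genes it was ins-39, and among 18 homeobox genes ceh-39.

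Several large X-linked families had no promoter peak at all. None was found at 5 vitellogenin (yolk) genes, 30 collagen genes, 34 chemoreceptor genes, 19 potassium channel genes, 10 genes of muscle structure, 7 acetylcholine receptor genes, 7 cytochrome P450 genes, 6 innexin genes, 6 hlh genes, 4 UDP-glucuronosyltransferase genes or 3 basement membrane genes. Autosomal members of these lists were rarely marked too. There the count was 0 for 67 cytochrome P450, 49 potassium channel, 22 acetylcholine receptor, 18 innexin and 10 basement membrane genes, and for 1 vitellogenin gene. Marked were 7 of 1284 chemoreceptor, 4 of 145 collagen, 4 of 63 UDP-glucuronosyltransferase, 1 of 20 muscle structure and 1 of 19 hlh genes. With 7.75% of all genes marked, the X-linked lists are short for a count of 0 to stand out, and none was tested. By the nearest 5′ end at any distance, the counts were 2 chemoreceptor genes and 1 gene each of the collagens, potassium channels, hlh genes and UDP-glucuronosyltransferases, and 308 X-linked genes in all, against the 201 with a promoter peak. The intestinal GATA factors elt-2 and elt-4, and med-1, a known SKN-1 target in the embryonic endoderm, had none either. The summits nearest to the 5′ ends of elt-2, med-1 and vit-2 were 51494, 36623 and 15330 bp away.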

How the data were processed

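The authors deposited 8 peak lists in narrowPeak format, 4 for each of 2 builds (ce11 and ce10): 1 per replicate, a pooled list, and a list passing an irreproducible discovery rate (IDR) threshold, per the text deposited with the samples. The deposited signal value is a score on the authors' scale. The q-value that the authors deposited, as −log10, is at its ceiling in all 1778 peaks and was not used further. The sources used here give no aligner, caller or IDR threshold. Signal tracks and the control were not used here. Read depth is unknown, so shares carry Wilson 95% intervals, which cover counting error only. Where a count of 0 is said to allow a share, that share is 3 divided by the number of peaks.

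Computed here: summits (start, offset and 1), promoters and distances from Ensembl release 115, motif searches on both strands of the WBcel235 sequence, and matches between lists within 100 bp. Coordinates are 1-based, and no peak end passed a chromosome end. Shares were compared with Fisher's exact test and, for summit against flank, an exact McNemar test, both two-sided with Benjamini-Hochberg adjustment within each family (8 comparisons of X with the autosomes, 4 within X, 7 motifs at summit against flank, and 7 motifs on X against the autosomes) and a threshold of 0.05. The functions were checked on simulated data. Python 3.11.15, NumPy 2.4.6, SciPy 1.17.1 and Matplotlib 3.10.9 were used.

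Named genes are those at the 15 strongest X promoter peaks, at the 10 strongest other X peaks, up to 3 marked members of each of 25 gene lists, genes with 3 or more summits within 2000 bp, the peaks beside the threshold, and 8 X-linked genes taken in any case (med-1, elt-2, vit-2, lin-14, sdc-2, sex-1, xol-1 and daf-12). Other genes were named after their values were seen, and so were those naming marked or unmarked members beyond the rule. The peaks, lists and motifs were chosen with earlier results of these data known. The alternatives were a stricter list, each replicate alone, other promoter, match, distance and motif windows, autosomes without chromosome V or III, the ce10 list, the nearest gene only and, added after seeing the data, peaks away from tRNA genes and the X and autosome comparison of the 7 motifs.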

Additional observations from a re-analysis of the deposited data

How the results depend on the processing

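No paired analysis was possible because the series has 1 group. The called differences between X and the autosomes (promoter, intergenic, distant, shared promoters, and CGCAGGG) and the CGCAGGG and GAGAG excess at X summits kept their direction and their call under every alternative run for them. All values below are differences in percentage points unless named otherwise, and in every reversal listed the main difference was not called.

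With the stronger part of the list, which holds 171 X peaks, differences turned to 0.81 (X against autosomes, replicate 1 match), -2.03, -0.041 and 4.80 (X promoter against other X peaks: stronger part, replicate 1 match, consensus) and 0.024 (TGATAA, X against autosomes). With other promoter lengths, the intron difference was -0.55 (500 bp), and within X the stronger-part difference was -3.22 and the replicate 1 difference -0.31 (2000 bp). With matches within 50 bp, the replicate 2 difference was -1.29 for X against autosomes and 8.20 within X, then called (adjusted p = 0.037, Fisher's exact test). With 200 bp, the replicate 1 difference was 0.40.

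With motif windows of 25 bp, differences became 0.82 (consensus, within X), 1.04 (core) and 0.57 (TGATAA, both X against autosomes). With 100 bp they became 0.78 (consensus) and 1.62 (TGATAA) for X against autosomes. At summit against flank they were then -1.15 (core), 7.76 (TGATAA) and 4.31 (GGGCGG), the last 2 called. Without peaks near tRNA genes, chosen after seeing the data, the stronger-part difference within X was -2.67 and the core difference 2.51. Counting each summit's nearest gene alone gave 308 X-linked genes.

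Each replicate alone gave ranges. For X against autosomes they were 0.091 (replicate 1 match, replicate 2 lines alone), -6.42 (replicate 2 match, replicate 1 lines alone, called at adjusted p = 0.022, Fisher's exact test), -0.054 to 0.81 (core), -2.17 to 1.61 (TGATAA) and -0.27 to 0.18 (CAGCTG). Within X they were -2.67 to 0.30 (stronger part), 13.8 (replicate 2 match, replicate 1 lines alone, called at adjusted p = 0.014, Fisher's exact test) and -2.46 to 1.13 (consensus). At summit against flank, TGATAA ran from 2.75 to 6.73, called without replicate 1, and GGGCGG from 0.88 to 3.02, called without replicate 2. The cause of these shifts was not tested. Depth, which is unknown here, and list length both limit how weak a site these lists can hold. In ce11 the replicate 2 list and the pooled list each hold 30000 lines, and the replicate 1 list holds 22350.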
